A study of Rattus norvegicus with 38 samples.

Results

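Xenobiotic metabolism enzymes are the proteins that oxidise drugs and pollutants and attach water-soluble groups to them. Here they were taken as every array probe with 1 annotated symbol that begins with Cyp and a digit, Ugt, Sult, Gst, Ephx or Aldh, or that is Nat1 or Nat2. This gave 90 probes of 89 genes, out of 5990 genes with such a probe, 6104 probes with 1 symbol and 26857 gene probes in all. The rule used names and no measured value, but it was chosen with earlier results of these data known. Another 6 probes of these families carry several symbols and are counted but not named. The families also hold enzymes whose main substrates are the body's own, such as Cyp51 of sterol synthesis and Ugt8 of myelin lipid synthesis.

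The RNA came from blood leukocytes of male CDF Fisher 344 rats about 4 months old, which were given a single intraperitoneal injection in vegetable oil, and each rat was measured on 1 array. Acetaminophen (AP), a painkiller that injures the liver at high dose, was given at 1200 mg/kg, and methyl parathion (MP), an organophosphate insecticide that inhibits acetylcholinesterase, at 15 mg/kg. For each chemical 4 rats were killed at 4 h, 4 at 12 h, 4 at 24 h and 3 at 168 h, and 4 rats that received vegetable oil alone were killed at 24 h. The hour of killing was therefore not matched at 4 and 12 h, and no vehicle rats were kept to 168 h. The 4 comparisons of a chemical share its vehicle rats.

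Phase 1 enzymes, led by the cytochromes P450, insert or uncover a reactive group, and aldehyde dehydrogenases and epoxide hydrolases deal with the aldehydes and epoxides that arise. Phase 2 enzymes then attach glucuronic acid, sulfate, glutathione or an acetyl group. The liver carries most of this work: it clears acetaminophen mainly by glucuronidation and sulfation, while Cyp2e1 and other P450s turn a part of it into a reactive quinone imine that glutathione traps. Methyl parathion is made toxic when P450s exchange its sulfur for oxygen, and glutathione transferases can remove its methyl groups. White blood cells express some of these enzymes, and their expression in blood is often read as a stand-in for tissue.

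Promoter sequences are shown for Ugt8, Cyp4f5 and Gsta5, members of 3 families that were called 24 h after acetaminophen with a change over 1 on the log2 scale, as the stretch of 250 bases before the annotated start, with motif matches in capitals. They come from RefSeq on the rat build GRCr8, in which 74 of the 89 genes had an entry. The letters searched, on both strands, were TGACNNNGC, the core of the antioxidant response element that Nfe2l2 binds, and GCGTG, the core of the xenobiotic response element that the Ahr and Arnt pair binds. The last bases of the first can be the first bases of the second. Ugt8 lies on the minus strand at chr2:217007168-217007417 and had the second core at base -31, read on the opposite strand. Cyp4f5 lies on the plus strand at chr7:12194387-12194636 and had that core at base -167. Gsta5, on the plus strand at chr8:87988104-87988353, had neither set of letters in this window.
Ugt8: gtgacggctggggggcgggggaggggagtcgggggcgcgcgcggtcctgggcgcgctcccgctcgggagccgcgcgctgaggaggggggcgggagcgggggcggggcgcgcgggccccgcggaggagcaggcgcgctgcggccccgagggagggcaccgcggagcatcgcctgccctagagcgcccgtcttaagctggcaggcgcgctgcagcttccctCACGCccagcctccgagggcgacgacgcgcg
Cyp4f5: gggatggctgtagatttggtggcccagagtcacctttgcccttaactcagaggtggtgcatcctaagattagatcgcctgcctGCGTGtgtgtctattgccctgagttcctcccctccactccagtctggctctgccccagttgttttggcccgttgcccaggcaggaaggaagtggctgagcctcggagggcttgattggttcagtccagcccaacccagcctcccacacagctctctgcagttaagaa
Gsta5: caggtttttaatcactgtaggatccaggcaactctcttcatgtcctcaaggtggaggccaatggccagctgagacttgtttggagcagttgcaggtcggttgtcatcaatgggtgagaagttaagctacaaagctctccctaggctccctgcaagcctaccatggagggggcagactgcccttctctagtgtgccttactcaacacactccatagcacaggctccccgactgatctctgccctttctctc

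Within these 250 bases the antioxidant element was present in 9.46% of the 74 member promoters and in 10.2% of all 27457 promoters. The xenobiotic core was present in 23% of member promoters against 27.2% of all. Of the 25 members both tested on the array and present in the table, 4% held the first and 28% the second. These shares are a description and were not tested. A match in these letters does not show that a factor binds there.

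Median raw signal of the arrays ran from 176.6 to 389.6 and 36.4 to 51.7% of probes were above background, which means a signal-to-noise ratio of 3 or more. Replicate arrays had a Pearson correlation of 0.909 to 0.967 over the probes. Of 8 general leukocyte markers 6 were on the array, and all 6 were above background on every array. Values below are log2 quantile-normalized signals, with a floor at 6.40, and changes are differences between group means on that scale with their standard error from the model. A call means an adjusted p under 0.05 in limma's moderated test with Benjamini-Hochberg adjustment over 12805 probes. Levels of different probes are not comparable, and closely related genes, such as those of the Gsta, Gstm, Cyp2d and Cyp4f groups, may share probe signal, since the probe sequences were not used here.

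Most of the enzymes were not measurable in blood leukocytes. Detected, here, means above background on most arrays in 1 or more groups, and 32 of the 90 probes met this, or 35.6%, against 57.3% of all probes with 1 symbol. There were 16 probes above background on no array, 42 others that were so on 1 to 11 arrays without passing, and 11 above background on all 38. Of the 48 P450 probes 12 were detected. In the drug-metabolising P450 families 1 to 3 this held for 6 of 26 probes (Cyp2b12, Cyp2b21, Cyp2d1, Cyp2d3, Cyp2e1 and Cyp2j4), and Cyp1a1, Cyp1a2, Cyp1b1, all 6 probes of Cyp2c genes and all 4 of Cyp3a genes were not. In family 4, whose enzymes hydroxylate fatty acids and eicosanoids, 4 of 9 passed (Cyp4a3, Cyp4f4, Cyp4f5 and 1 of 2 probes of Cyp4a8). Among the other P450s, mostly of steroid, bile acid and vitamin D metabolism, 2 of 13 passed, Cyp51 and the orphan enzyme Cyp20a1.

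The conjugating enzymes were split by family. All 5 Ugt2 probes, whose products attach glucuronic acid to drugs and steroids, were below the limit, and Ugt8 was the only detected member of 6. Sulfotransferases passed for 2 of 8 (Sult1a1 and Sult4a1). Glutathione transferases passed for 7 of 13 (Gsta1, Gsta5, Gstk1, Gstm1, Gstm2, Gstm5 and Gstt2), and Gsta2, Gsta3, Gstm3, Gstm7, Gsto2 and Gstt1 did not. Both epoxide hydrolases, both N-acetyltransferases and 6 of 11 aldehyde dehydrogenases passed. In the 8 vehicle rats Aldh2, the mitochondrial enzyme that clears acetaldehyde, had a log2 signal of 14.2 ± 0.18 (SD, n = 8), Cyp51 13.2 ± 0.14, Aldh3b1 13.0 ± 0.23 and Gstm1 12.9 ± 0.15. Ugt8, Gsta5, Gstm5, Cyp2b21 and Cyp4f4 were above background on none of these 8 arrays. For a probe that passed only through a group in which it was high, a test of that group is not independent of the choice. Of the 32, 5 passed through 1 group alone, Gsta5 among them, and Ugt8 passed through 2. The others of these 5, Aldh1a1, Cyp2b21, Cyp4f4 and Gstm5, were called in no comparison with vehicle.

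**Figure D1:**
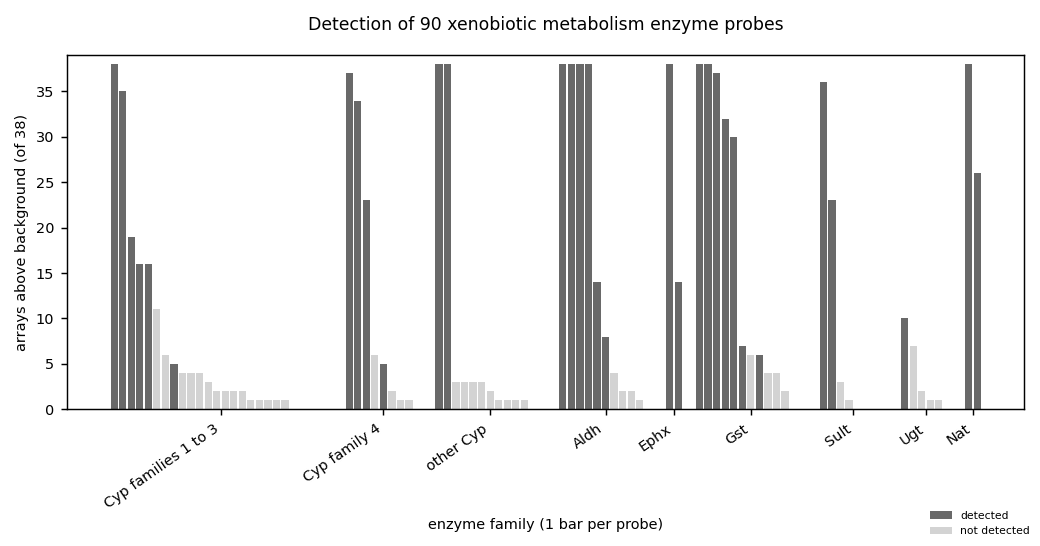
Number of the 38 arrays on which each of the 90 probes was above background (vertical axis), with 1 bar per probe ordered within its enzyme family; probes with no bar were above background on no array. The 32 dark bars are the detected probes, 11 of them at 38 arrays, and the Cyp, Ugt and Sult families consist mainly of grey or absent bars.

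The enzymes that handle acetaminophen in the liver were looked at by name. Of a list of 14 such genes 9 had a probe with 1 symbol, and 3 of these were tested (Cyp2e1, Sult1a1 and Gstm1). Cyp1a2 was above background on 11 of 38 arrays, Cyp3a2, Cyp3a9 and Gsta2 on 4 each, Cyp2a3 on 2 and Cyp3a18 on none, and none of these 6 was tested. Cyp2e1 passed through 4 groups and was above background on 16 arrays in all. Its log2 signal was 6.81, 7.59, 8.19 and 7.92 in the acetaminophen vehicle rats and 9.56, 8.16, 8.58 and 9.13 at 24 h. The ranges overlapped, and the change of 1.23 ± 0.53 did not pass (adjusted p = 0.0691). No other Cyp2e1 comparison passed either, with changes from -0.55 at 168 h after methyl parathion to 1.01 at 4 h after acetaminophen.

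Over the 8 comparisons with vehicle, 16 of the 32 tested probes were called at least once and 16 never. The share of all probes called at least once is not given, so that this split is no result about the enzymes. After acetaminophen there were 23 calls and after methyl parathion 4. All tested probes, too, were called more often after acetaminophen at 4, 12 and 24 h, though not at 168 h. At 4 h after acetaminophen 1 rose and 1 fell, where 6.58% of all tested probes were called (2.9% higher and 3.68% lower). At 12 h 4 rose and 4 fell (background 34.3%, 13.8% higher and 20.5% lower), at 24 h 5 rose and 4 fell (35.6%, 14.7% higher and 20.9% lower), and at 168 h 2 rose and 2 fell (11.1%, 3.08% higher and 8.02% lower). After methyl parathion the counts were 0 at 4 h (background 0%), 1 fall at 12 h (8.04%, 4.92% lower), 0 at 24 h (2.38%) and 3 falls at 168 h (18.2%, 9.13% lower). The share of members called was 25% at 12 h and 28.1% at 24 h after acetaminophen, below the share of all probes, so that these counts are no result about the enzymes as a group. Their median change after acetaminophen lay between 0.01 at 24 h and 0.15 at 168 h, and that of all tested probes between -0.06 and -0.03. For methyl parathion at 4 h no probe on the array was called by limma, and 2 members and 1371 probes had an unadjusted p under 0.05. At 24 h 3 members and 2185 probes had one.

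**Figure D2:**
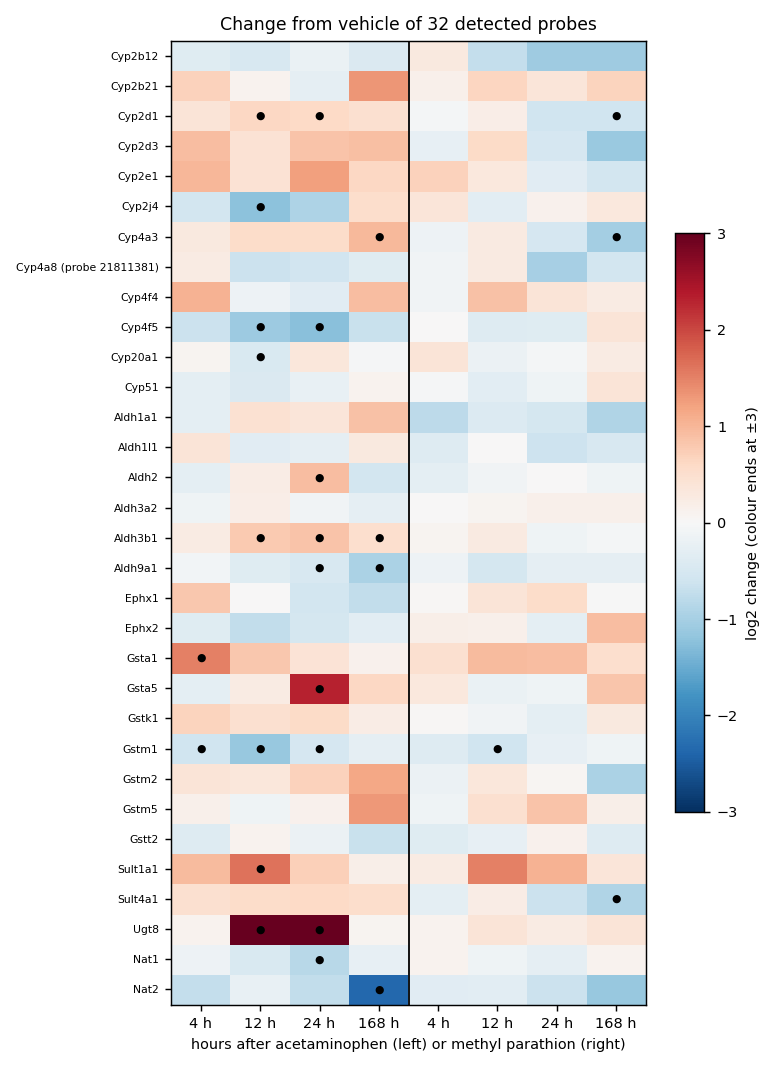
Log2 change from the vehicle rats of the same chemical (colour) for the 32 detected probes (rows, ordered by family) at 4 times after acetaminophen (left 4 columns) and methyl parathion (right 4 columns), with a dot where the adjusted p passed. Of the 27 dots 23 lie in the acetaminophen columns, and the deepest red cells are Ugt8 at 12 and 24 h and Gsta5 at 24 h. All tested probes, too, were called more often after acetaminophen than after methyl parathion at 4, 12 and 24 h.

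Blood is a mixture of cells whose proportions moved with the treatment, and in bulk RNA fewer cells of a type and less RNA per cell cannot be told apart. At 12 and at 24 h after acetaminophen 8 of 9 tested neutrophil markers rose and all 9 tested T cell markers fell. The summed neutrophil marker signal was 1240800 to 1769100 in acetaminophen vehicle rats and 3020100 to 4216600 at 24 h. Lcn2 alone was above background on none of these vehicle arrays. At 24 h all 9 natural killer cell markers fell too, from a sum of 760990 to 1011100 in acetaminophen vehicle rats to 192270 to 361420. Liver transcripts moved with the same times: 12 of 14 tested hepatocyte markers rose at 24 h and 4 at 12 h. Their summed signal was 106200 to 288420 in acetaminophen vehicle rats and 643670 to 826940 at 24 h. In methyl parathion vehicle rats this sum was 216660 to 581620, and the neutrophil sum there was 1146400 to 2942600. Of the 21 on the array 12, Alb and Ttr among them, were above background on no acetaminophen vehicle array. In methyl parathion vehicle rats 10 were on none, Alb but not Ttr among them. At 24 h after acetaminophen 3 (Ambp, Cps1 and Asgr1) were on none. The part of these shifts in the enzyme changes at 12 and 24 h was not tested.

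Ugt8 is the galactosyltransferase that makes galactosylceramide, the main lipid of myelin, and belongs by sequence to the glucuronosyltransferases. It showed the largest change of any of the 32 probes. The log2 signal was 8.07, 7.39, 6.85 and 7.83 in the acetaminophen vehicle rats and 8.40, 7.76, 7.72 and 6.70 at 4 h. At 12 h it was 10.36, 10.41, 10.75 and 10.90, and at 24 h 12.60, 12.36, 12.58 and 12.24. All 8 arrays of these later times lay above every vehicle array, and at 24 h above every array at 12 h. The vehicle arrays were all below background, so that the folds between group means are lower bounds as to background only. They were 8.38-fold at 12 h (adjusted p = 2.08e-06) and 30.1-fold at 24 h (adjusted p = 2.42e-10). With 1 array left out the log2 changes were 2.84 to 3.25 at 12 h and 4.68 to 5.09 at 24 h. Ugt8 was tested only because it passed the detection limit in these 12 and 24 h groups, so that these p-values are not independent of that choice. At 168 h the 2 usable arrays gave 7.27 and 7.95, back in the vehicle range, and the third was a flagged spot left out of the fit. After methyl parathion all arrays lay between 6.59 and 8.96 and no comparison passed. The change from vehicle was larger after acetaminophen than after methyl parathion by 2.67 ± 0.65 at 12 h (adjusted p = 0.00687, where 11.4% of all probes were called, 6.04% higher) and by 4.66 at 24 h (adjusted p = 2.61e-06).

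Of the 6 detected probes of P450 families 1 to 3, Cyp2d1 and Cyp2j4 were called after acetaminophen. Cyp2d1, of the subfamily that oxidises many basic drugs, had log2 signals of 12.56, 12.52, 12.57 and 12.49 in the acetaminophen vehicle rats, 13.29, 13.22, 13.18 and 12.90 at 12 h and 13.31, 13.38, 12.71 and 13.14 at 24 h. The treated arrays all lay above the vehicle arrays, with rises of 0.62 ± 0.17 at 12 h (adjusted p = 0.00438) and 0.60 ± 0.17 at 24 h (adjusted p = 0.00513). With arrays scaled by their median these were no longer called (adjusted p = 0.0705 and 0.0535). Its close relative Cyp2d3 passed no test. Cyp2j4, an enzyme of the arachidonic acid epoxygenase subfamily, had 8.73, 8.54, 8.63 and 8.72 in vehicle rats and 7.76, 7.00, 7.87 and 7.05 at 12 h. The groups did not overlap, and the change was -1.24 ± 0.45 (adjusted p = 0.0322). No 12 h array and only 2 vehicle arrays were above background, so no bound is given for this fall. This call was lost without vehicle rat 1, 3 or 4 or without 12 h rat 2 or 4 (adjusted p 0.0536 to 0.0928).

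Cyp4f5, of the P450s that inactivate leukotriene B4 and related lipids, fell. Its log2 signal was 10.26, 10.41, 10.23 and 10.42 in the acetaminophen vehicle rats, 9.27, 9.26, 8.83 and 9.62 at 12 h and 9.35, 9.60, 8.56 and 8.78 at 24 h. All 8 treated arrays lay below the vehicle arrays, with changes of -1.08 ± 0.35 at 12 h (adjusted p = 0.0152) and -1.25 ± 0.35 at 24 h (adjusted p = 0.0048). Without 12 h rat 3 the first was not called (adjusted p = 0.056). Every group except acetaminophen at 24 h was above background on most arrays, so that the size of the 24 h fall is less certain. At 4 h rats 3 and 4 read 8.72 and 9.42 and rats 1 and 2 10.41 and 10.15, so that this group was split and did not pass (adjusted p = 0.275). Cyp4a3, a fatty acid hydroxylase, rose at 168 h, from 9.73, 10.05, 9.89 and 9.63 to 10.87, 10.82 and 10.71, a change of 0.97 ± 0.31 (adjusted p = 0.0372). Without any of vehicle rats 1, 3 and 4 or of the 3 treated rats that call was lost (adjusted p 0.0595 to 0.127), and median scaling brought the change to 0.54. Cyp20a1 fell at 12 h by 0.45 (adjusted p = 0.0403), a call lost without any of vehicle rats 1, 3 and 4 and 12 h rats 1, 3 and 4 (adjusted p 0.0625 to 0.158).

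Aldehyde dehydrogenases gave changes in both directions. Aldh2 had log2 signals of 14.36, 14.20, 14.31 and 14.08 in the acetaminophen vehicle rats, 14.51, 14.25, 14.64 and 14.48 at 12 h, 14.97, 15.34, 15.34 and 15.05 at 24 h, and 13.67, 13.69 and 13.70 at 168 h. The 24 h arrays lay above and the 168 h arrays below all vehicle arrays. The rise of 0.94 ± 0.18 at 24 h passed (adjusted p = 9.93e-05) and the change of -0.55 ± 0.20 at 168 h did not (adjusted p = 0.0657). Aldh3b1, which oxidises fatty aldehydes at membranes, had 12.79, 12.86, 12.80 and 12.94 in vehicle rats, 13.75, 13.56, 13.52 and 13.71 at 12 h and 13.67, 13.56, 13.76 and 13.79 at 24 h. It rose by 0.79 ± 0.15 at 12 h (adjusted p = 5.56e-05) and by 0.85 at 24 h (adjusted p = 1.75e-05), with no overlap. At 168 h it was at 13.42, 13.30 and 13.34, a rise of 0.51 (adjusted p = 0.0347) that median scaling brought to 0.10. That call was also lost without any of vehicle rats 1 to 3 or of the treated rats (adjusted p 0.0558 to 0.0999).

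Aldh9a1, which acts in carnitine synthesis, fell at 24 and 168 h. It went from 11.41, 11.55, 11.43 and 11.31 in vehicle rats to 10.95, 11.27, 10.81 and 11.17 at 12 h, 10.92, 10.82, 11.06 and 10.96 at 24 h and 10.53, 10.05 and 10.85 at 168 h, with no overlap. The change of -0.37 at 12 h did not pass (adjusted p = 0.119), and the others were -0.49 at 24 h (adjusted p = 0.0365) and -0.95 ± 0.20 at 168 h (adjusted p = 0.00328). The call at 24 h was lost without any of vehicle rats 1 to 3 or 24 h rats 1, 2 and 4 (adjusted p 0.0575 to 0.0911), and the adjusted p at 168 h reached 0.05 without 168 h rat 2. The other 3 detected members, Aldh1a1, Aldh1l1 and Aldh3a2, passed in no comparison with vehicle. The microsomal epoxide hydrolase Ephx1 and the soluble Ephx2 passed in none either.

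**Figure D3:**
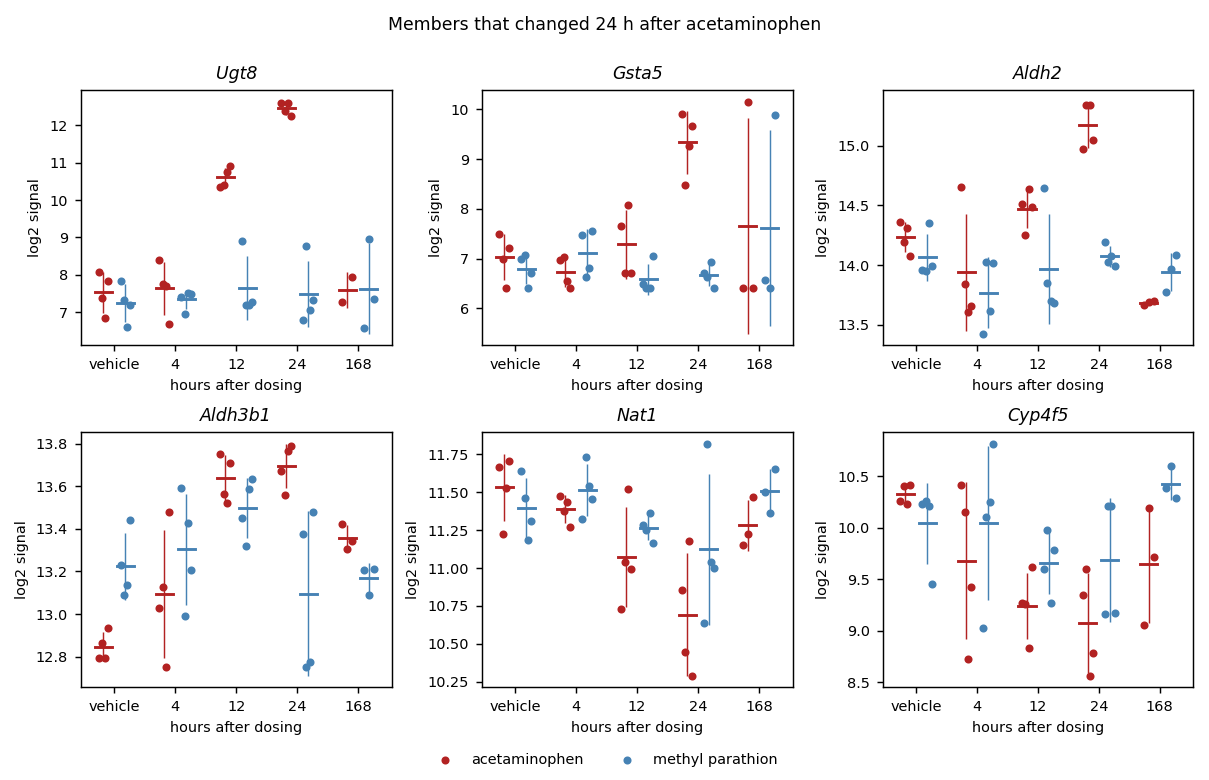
Log2 signal of 6 members on every array (points) by time after dosing for acetaminophen (red) and methyl parathion (blue), with group means (bars) and SD (vertical lines). The red Ugt8 points climb from below 8.1 in vehicle rats to above 12.2 at 24 h, Gsta5 is high in all 4 rats at 24 h and in 1 rat of each chemical at 168 h, and Nat1 and Cyp4f5 are lowest at 24 h after acetaminophen.

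Glutathione transferases join glutathione to electrophiles, among them the acetaminophen quinone imine. Gsta5, an alpha-class enzyme of the rat, had log2 signals of 7.50, 7.00, 6.40 and 7.21 in the acetaminophen vehicle rats and 9.91, 8.49, 9.27 and 9.67 at 24 h. All 4 treated arrays were above background and none of the vehicle arrays was. The rise between group means, a lower bound as to background only, was 4.90-fold (adjusted p = 0.00294). With 1 array left out the log2 change was 2.10 to 2.59. Gsta5 was tested only because it passed the detection limit in this 24 h group, so that this p is not independent of that choice. At 168 h rat 2 read 10.15 after acetaminophen and rat 3 read 9.88 after methyl parathion, while the other 2 rats of each group lay between 6.40 and 6.56. Its relative Gsta2 was above background on 2 of the 4 arrays at 24 h and on no vehicle array, and it was not tested.

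Gsta1 and Gstm1 gave the 2 calls at 4 h. Gsta1 had 10.71, 9.61, 11.29 and 10.23 in vehicle rats and 10.67, 12.47, 12.84 and 11.88 at 4 h, a rise of 1.50 ± 0.41 (adjusted p = 0.0219). Rats 2 to 4 lay above all vehicle rats and rat 1 among them. Gstm1, an abundant mu-class enzyme, had 12.97, 12.60, 12.92 and 12.97 in vehicle rats and 12.77, 12.16, 12.27 and 11.86 at 4 h, a change of -0.60 ± 0.17 (adjusted p = 0.0331), again with rat 1 in the vehicle range. Both calls were lost without any of treated rats 2 to 4 or without vehicle rat 4, the Gsta1 call also without vehicle rat 2 (adjusted p 0.051 to 0.144) and the Gstm1 call without vehicle rat 1 or 3 (0.069 to 0.164). Rat 1 also stood apart in Ephx1, at 10.78 against 12.09, 11.93 and 11.79, and in Aldh2, at 14.65 against 13.84, 13.61 and 13.66. Without rat 1, a comparison singled out after its values were seen, 4 members were called and 12.7% of all probes. They were Gsta1 at 1.94 (adjusted p = 0.00106), Gstm1 at -0.77 (0.00286), Ephx1 at 1.11 (0.0252) and Aldh2 at -0.54 (0.0319). The summed signal of the 3 B cell markers at 4 h was 2230.4 at its lowest, 5332.8 at the median and 24778 at its highest. It was 28506 to 42140 in acetaminophen vehicle rats and 20373 to 35645 in methyl parathion vehicle rats. All 3 tested platelet markers rose and 6 of 9 tested T cell markers fell at 4 h, and the part of these shifts was not tested.

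Gstm1 fell further at 12 h, to 11.65, 11.58, 11.98 and 11.70, a change of -1.14 ± 0.17 (adjusted p = 2.93e-06). At 24 h it was at 12.51, 12.69, 12.23 and 11.99, with rat 2 above the lowest vehicle rat, and the change was -0.51 (adjusted p = 0.0202). Without vehicle rat 1 or 4 or 24 h rat 3 or 4 the 24 h call was lost (adjusted p 0.0546 to 0.104), as it was with median scaling (0.236). At 168 h the change was -0.26 (adjusted p = 0.372). Gstm1 was also the 1 member called at 12 h after methyl parathion, where it went from 12.92, 12.99, 12.95 and 12.68 to 12.29, 12.55, 12.05 and 12.20, without overlap. The change of -0.61 (adjusted p = 0.0266) was lost without any of vehicle rats 1 to 3 or 12 h rats 1, 3 and 4 (adjusted p 0.0626 to 0.0996). At that time, too, all 9 tested T cell markers fell, and their part was not tested. Gstk1, Gstm2, Gstm5 and Gstt2 passed in no comparison.

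Sult1a1 sulfates phenols, acetaminophen among them. Its log2 signal was 8.47, 7.80, 7.12 and 8.18 in the acetaminophen vehicle rats, 9.21, 10.12, 9.36 and 9.37 at 12 h and 9.25, 8.67, 8.85 and 7.64 at 24 h. Sult1a1 was tested only through the 12 and 24 h groups of both chemicals. Neither vehicle group passed the detection limit, with 4 of the 8 vehicle arrays above background. The 12 h arrays lay above all acetaminophen vehicle arrays, with a rise of 1.62 ± 0.59 (adjusted p = 0.0300). The call was lost without vehicle rat 2 or 3 or 12 h rat 2 (adjusted p 0.0555 to 0.101). At 12 h after methyl parathion it was at 9.85, 7.95, 10.69 and 9.69 against 8.58, 7.34, 8.08 and 8.15, which overlapped, and the change of 1.51 ± 0.59 did not pass (adjusted p = 0.106).

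The arylamine N-acetyltransferases, which acetylate aromatic amines, were lower at different times. Nat1 had 11.67, 11.22, 11.53 and 11.70 in the acetaminophen vehicle rats and 10.86, 10.45, 11.18 and 10.29 at 24 h, without overlap, a change of -0.84 ± 0.20 (adjusted p = 0.00104). Nat2 had 9.68, 9.58, 9.27 and 9.70 in vehicle rats, 8.86, 9.05, 8.83 and 8.55 at 24 h and 7.66, 7.37 and 6.59 at 168 h. No array at 168 h was above background. The fall between group means at 168 h, a lower bound as to background only, was 5.09-fold (adjusted p = 0.000977). With 1 array left out the log2 change at 168 h was -2.57 to -2.04. At 24 h the change of -0.74 did not pass (adjusted p = 0.149). At 168 h after methyl parathion Nat2 read 8.43, 8.62 and 7.30 against 9.32, 9.52, 9.25 and 8.92, all below the vehicle rats, and the change of -1.14 did not pass (adjusted p = 0.0569). Median scaling moved the median change of all probes at 168 h after acetaminophen from -0.06 to -0.38. With it the probes called higher went from 394 to 74 and those called lower from 1027 to 1845. At that time 4 of 9 tested T cell markers and 2 of 6 general leukocyte markers fell, and their part in the Nat2 and Aldh9a1 changes was not tested.

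**Figure D4:**
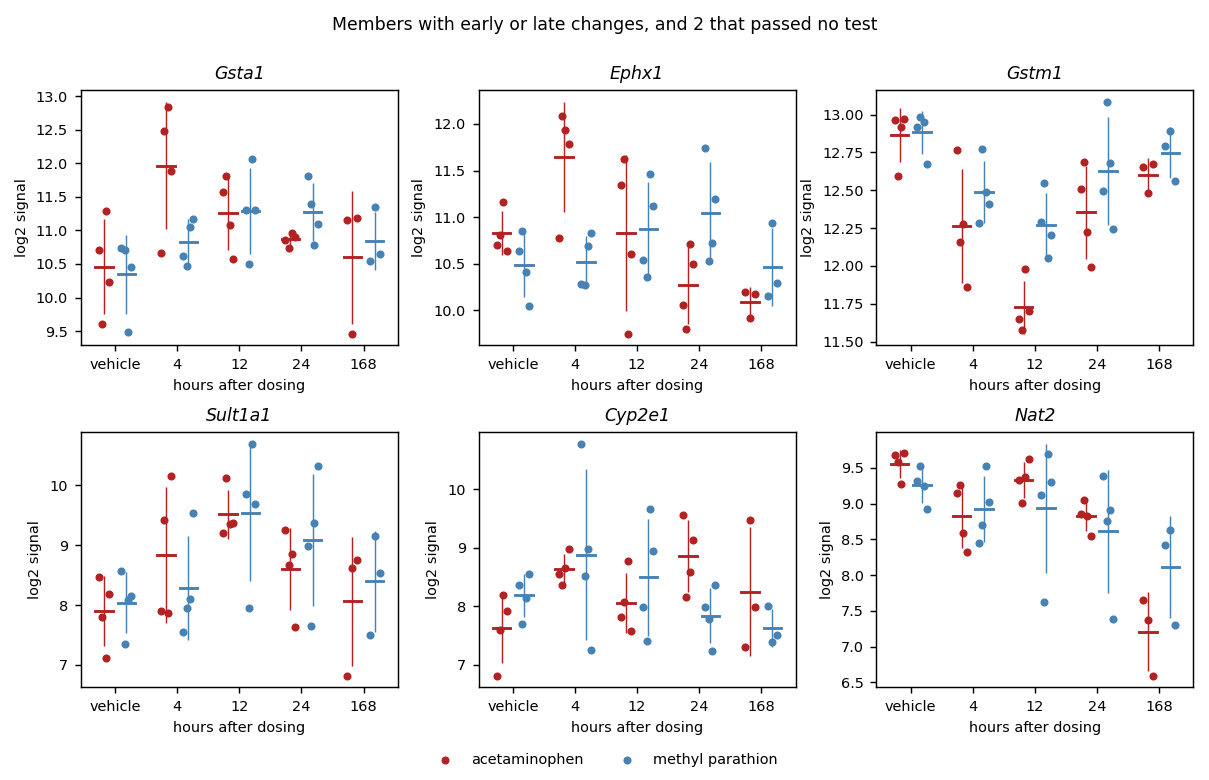
Log2 signal on every array (points), group means (bars) and SD (vertical lines) of 4 members called at other times and of Ephx1 and Cyp2e1, which passed in no comparison with vehicle. Red marks acetaminophen and blue methyl parathion: 3 of 4 rats are high in Gsta1 and Ephx1 at 4 h, Gstm1 is lowest at 12 h, and Nat2 is lowest at 168 h after acetaminophen.

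At 168 h after methyl parathion 3 members fell and none rose, where 18.2% of all tested probes were called, 9.13% lower. The count is thus no result about the enzymes as a group. Sult4a1, a sulfotransferase of nerve tissue whose substrate is not known, had log2 signals of 10.28, 10.41, 9.98 and 10.55 in the methyl parathion vehicle rats and 9.90, 8.87 and 9.41 at 168 h, a change of -0.91 ± 0.26 (adjusted p = 0.0152). Cyp2d1 went from 12.88, 13.23, 13.18 and 13.36 to 12.93, 12.51 and 12.22, a change of -0.61 (adjusted p = 0.0199). Cyp4a3 went from 10.33, 10.15, 10.52 and 11.06 to 9.63, 9.15 and 9.71, a change of -1.02 ± 0.31 (adjusted p = 0.0200). The groups did not overlap in Sult4a1 and Cyp4a3, and in Cyp2d1 treated rat 1 lay just above the lowest vehicle rat. Without treated rat 2 all 3 calls were lost (adjusted p = 0.138, 0.069 and 0.111 in that order). The Cyp2d1 and Cyp4a3 calls were also lost without vehicle rat 4 (0.0598 and 0.0775), and Cyp2d1 without treated rat 3 (0.147). None of these 3 calls held when the 7 arrays were fitted alone (adjusted p = 0.0802 in Sult4a1, 0.0609 in Cyp2d1 and 0.0513 in Cyp4a3).

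Whether the chemicals differed was tested as the difference of their changes from vehicle. At 24 h this signed difference, acetaminophen minus methyl parathion, was called above 0 for 7 members and below 0 for 0, where 25.7% of all probes were called, 11.9% higher after acetaminophen. Beside Ugt8 they were Cyp2d1 (1.20, adjusted p = 0.000325), Aldh3b1 (0.98, 0.000625), Sult4a1 (1.24, 0.00697), Aldh2 (0.93, 0.00751), Gsta5 (2.43 ± 0.87, 0.0358) and Cyp4a3 (1.06, 0.0495). Ugt8 and Gsta5 had entered the test only through acetaminophen groups in which they were high. In Cyp2d1, Sult4a1 and Cyp4a3 the changes from vehicle at 24 h were of similar size and opposite sign. They were 0.60 after acetaminophen and -0.60 after methyl parathion in Cyp2d1, 0.60 and -0.64 in Sult4a1, and 0.56 and -0.51 in Cyp4a3. Of these only the value of Cyp2d1 after acetaminophen passed by itself. In Aldh3b1 and Gsta5 the difference was larger than the acetaminophen change (0.85 and 2.30, both called). The methyl parathion change was thus slightly below 0 there, and it was not called. In Gsta5 neither methyl parathion group passed the detection limit. At 168 h Cyp4a3 (1.99, adjusted p = 0.0242), Cyp2d1 (1.09, 0.0263) and Sult4a1 (1.42, 0.0318) differed, where 3.4% of all probes did, 2.67% higher after acetaminophen. Here too the changes had opposite signs after acetaminophen and methyl parathion, at 0.97 and -1.02 in Cyp4a3, 0.48 and -0.61 in Cyp2d1 and 0.52 and -0.91 in Sult4a1, of which 0.48 and 0.52 did not pass. At 4 h 0 members and 0 probes on the array differed by limma, with 1 member and 1879 probes at an unadjusted p under 0.05.

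The vehicle groups themselves were unequal in several of these members. The acetaminophen vehicle mean minus the methyl parathion vehicle mean was -0.63 in Cyp2d1, -0.89 in Sult4a1, -0.69 in Cyp4a3, -0.38 in Aldh3b1 and -1.20 in Cyp2d3 on the log2 scale. None of these passed (adjusted p 0.188 to 0.445), and 0 of all tested probes did, although 6 members and 1378 probes had an unadjusted p under 0.05. In Cyp2d1 the 3 highest methyl parathion vehicle arrays, 13.23, 13.18 and 13.36, were as high as the acetaminophen arrays at 12 h. Sult4a1 was at 9.50, 9.01, 9.84 and 9.29 in acetaminophen vehicle rats and 9.79, 9.84, 10.19 and 10.21 at 24 h, and at 10.11, 9.73, 9.65 and 9.17 at 24 h after methyl parathion. Its acetaminophen arrays at 24 h thus stayed below 3 of the 4 methyl parathion vehicle arrays given above. In Ugt8, Gsta5 and Aldh2 the vehicle groups overlapped, and Gsta5 was at 6.71, 6.63, 6.93 and 6.40 at 24 h after methyl parathion. The Gsta5 difference was lost without any of 8 arrays: vehicle rat 3 and 24 h rats 1 and 4 of acetaminophen, and vehicle rats 1, 2 and 4 and 24 h rats 2 and 4 of methyl parathion (adjusted p 0.051 to 0.0725). It was also lost with median scaling (0.0962), without the detection filter (0.0511) and without the floor (0.057). The Cyp4a3 difference at 24 h was lost without any of 11 of the 16 arrays (0.0503 to 0.143).

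**Figure D5:**
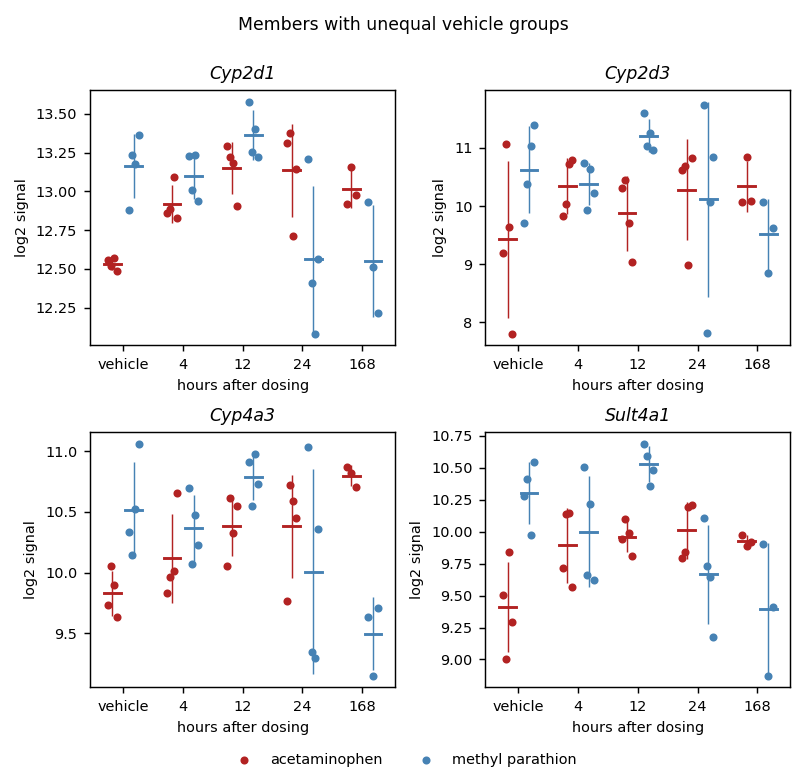
Log2 signal on every array (points), group means (bars) and SD (vertical lines) of 4 members in which the acetaminophen vehicle group (red, left) lay lower than the methyl parathion vehicle group (blue, left). After dosing the red groups lie at or above their vehicle level and the blue groups at 168 h lie below theirs, so that the order of the 2 chemicals is turned by 168 h.

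Partners and regulators of these enzymes, from lists chosen with earlier results of these data known, are described next. Of 19 tested oxidoreductase partners 4 rose and 8 fell at 12 h after acetaminophen, and 5 rose and 6 fell at 24 h, with a median change of -0.37 at 24 h. Of all probes 34.3% were called at 12 h and 35.6% at 24 h. The quinone reductase Nqo1 rose by 2.50 ± 0.21 at 12 h (adjusted p = 5.66e-11) and 2.91 ± 0.21 at 24 h (4.91e-13), and Por, which passes electrons to P450s, by 0.89 and 1.42. Xanthine dehydrogenase Xdh rose at 4 h (1.11, adjusted p = 0.000814), 12 h (2.11) and 24 h (1.86). Aldose reductase Akr1b1 changed by -1.13 at 12 h (adjusted p = 9.26e-06) and the steroid reductase Hsd11b1 by -1.17 at 12 h and -1.67 at 24 h (adjusted p = 5.33e-07). After methyl parathion 3 passed at 12 h, namely Nqo1 (0.87, adjusted p = 0.00992), Xdh (0.70) and Akr1b1 (-0.68), and 2 rose at 168 h, Akr7a2 (0.87) and Cyb5r3 (0.55). At 168 h after acetaminophen 3 fell, Akr1a1 (-0.65), Akr1b1 (-0.78) and Cbr4 (-1.02). Of all probes 8.04% were called at 12 h and 18.2% at 168 h after methyl parathion, and 11.1% at 168 h after acetaminophen.

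Among 8 other tested genes of conjugation 3 rose and none fell at 12 and at 24 h after acetaminophen, a share close to the 34.3% and 35.6% of all probes called. Ggt1, which breaks down glutathione conjugates at the cell surface, rose by 3.74 ± 0.60 at 12 h (adjusted p = 6.03e-06) and 5.38 ± 0.60 at 24 h (7.76e-09). The microsomal glutathione transferase Mgst1 rose by 1.57 and 1.34 and glutathione reductase Gsr by 1.26 and 1.06. At 168 h Ugdh, which makes the glucuronic acid donor, and Gsr changed by -1.19 (adjusted p = 0.0147) and -0.78 (0.0359). Ugdh also changed by -1.03 at 12 h after methyl parathion (adjusted p = 0.0249).

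Of the regulators 6 were tested. The antioxidant-response factor Nfe2l2 rose by 1.09 ± 0.16 at 12 h (adjusted p = 1.6e-06) and 0.83 at 24 h, and its inhibitor Keap1 changed by -0.57 and -0.49. The xenobiotic receptor Ahr rose by 2.50 ± 0.55 at 24 h (adjusted p = 0.000388) and its partner Arnt by 1.61 at 12 h and 1.56 at 24 h. Arnt changed by -1.69 at 168 h after methyl parathion (adjusted p = 0.0356). Cyp1a1, Cyp1a2 and Cyp1b1, the classic targets of Ahr, were above background on none of the 4 arrays at 24 h after acetaminophen. Of 2 tested hydrolases Pon3 changed by -1.22 at 24 h after acetaminophen (adjusted p = 0.00269), and of 5 efflux transporters Abcc1 changed by -1.13 at 12 h (adjusted p = 0.0465).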

How the data were processed

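Total RNA of leukocytes from 38 rats, depleted of globin mRNA per the labels' protocols, was measured on 1-colour chemiluminescent Applied Biosystems arrays. The authors deposited a linear intensity per probe, a signal-to-noise ratio, which is a score per probe, and quality flags of another kind without a unit. Their deposited table of log2 values equalled the log2 of the quantile-normalized intensities to within 5e-09. Scanner software, slides, scan dates and the array's genome build are not given in the sources used here, so no batch could be tested.

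Gene probes (26857, without 322 control spots) were raised to a floor of 84.7, the 5th percentile, and flagged spots (0.9598% of values) were set missing. The 12805 tested probes had a signal-to-noise ratio of 3 or more on most arrays in 1 or more groups and at least 2 values in each group. A linear model with 10 groups was fitted in limma 3.58.1 (R 4.3.3) with a variance trend, 28 residual and 6.31 prior degrees of freedom, two-sided tests and Benjamini-Hochberg adjustment. Where no array of a group was above background, folds are lower bounds as to background that compare mean log2 signals. They make no allowance for the spread between rats. They use, per array, the higher of the probe's own signal and the lowest signal above background. The fit was tested on simulated data. Other tools were Python 3.11.15 and pandas 2.3.3. The members and lists were chosen with earlier results of these data known. Every called member was named, those with a change of at least 1 on the log2 scale by array, and so was every listed acetaminophen enzyme. Of the other lists up to 4 members with the smallest p per comparison were taken. Same-numbered rats were not paired: their deviations from group means correlated at -0.393 to 0.202 over 30 pairs. Each array is 1 rat, the number of arrays limits the precision, and alternatives are given at the end.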

Additional observations from a re-analysis of the deposited data

Results flagged for a closer look

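In 136 groups of 4 rats, over Cyp2e1 and the 16 members called against vehicle, 6 groups held a value far from the others. Chance alone gives about 1 in 20, and 6 of 136 is no more than that. They were Cyp4f5 in methyl parathion vehicle rat 4, at 9.46 against 10.22 to 10.26, and Gsta5 at 12 h after methyl parathion in rat 4, at 7.05. In that Gsta5 group other values were set at the floor. Further ones were Aldh2 in methyl parathion vehicle rat 3, at 14.36, and Cyp20a1 at 24 h after acetaminophen in rat 4, at 11.61. The others were Gstm1 in acetaminophen vehicle rat 2, at 12.60, and Ugt8 at 12 h after methyl parathion in rat 1, at 8.92. All are log2 signals.

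The change from vehicle differed between the chemicals in 11 pairs of member and time, each with the signed change higher after acetaminophen. Opposite signs were seen in Cyp2d1, Sult4a1 and Cyp4a3. In Aldh3b1 and Gsta5 at 24 h the methyl parathion change was only slightly below 0 and not called. Gsta5 passed the detection limit only at 24 h after acetaminophen, so that this sign carries no weight there. The difference of the log2 changes was 2.67 at 12 h and 4.66 at 24 h in Ugt8, 1.20 at 24 h and 1.09 at 168 h in Cyp2d1, 1.24 and 1.42 in Sult4a1, and 1.06 and 1.99 in Cyp4a3 at these times. At 24 h it was 0.98 in Aldh3b1, 0.93 in Aldh2 and 2.43 in Gsta5.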

How the results depend on the processing

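Of 38 calls, differences between chemicals included, 19 held under all 8 alternative settings, 18 whenever 1 array was left out and 16 under both, and none changed sign. Median scaling ended 13, among them Gsta1 (adjusted p = 0.109) and Gstm1 (0.231) at 4 h and Cyp20a1 (0.154) at 12 h after acetaminophen and Gstm1 at 12 h after methyl parathion (0.122). Without a detection filter 11 were lost and with only the compared arrays 9; the cause was not tested. Rat numbers paired no samples, and a replicate block ended 2, Cyp20a1 at 12 h (0.0505) and the Cyp4a3 difference at 24 h (0.0533).

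Member counts moved as follows. After acetaminophen, the 2 calls at 4 h became 0 with median scaling, 1 without a filter and 0 with only the compared arrays. The 8 at 12 h became 5 without a filter and 15 with array weights, the 9 at 24 h became 14 with weights, and the 4 at 168 h became 2 without a filter and 8 with weights. After methyl parathion, the 1 at 12 h became 0 with median scaling, no filter or only the compared arrays, and 6 with weights. The 0 at 24 h became 1 with a stricter filter, with weights and with the replicate block, and the 3 at 168 h became 5 with median scaling and 0 with only the compared arrays. Of differences, the 1 at 12 h became 3 with weights and 2 with only the compared arrays, the 3 at 168 h became 1 with median scaling, and the 0 between vehicle groups became 3 with weights.

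Leaving out 1 array gave, after acetaminophen, 0 to 4 calls at 4 h, 6 to 8 at 12 h, 7 to 9 at 24 h and 1 to 4 at 168 h. After methyl parathion it gave 0 at 4 h, 0 to 3 at 12 h, 0 to 2 at 24 h and 0 to 3 at 168 h. Differences ranged over 0 at 4 h, 1 at 12 h, 5 to 8 at 24 h and 0 to 3 at 168 h, and the vehicle groups gave 0. Differences at 168 h were lost without any of 4 arrays in Cyp4a3 (adjusted p 0.0543 to 0.0913), 5 in Cyp2d1 (0.0543 to 0.0957) and 8 in Sult4a1 (0.0539 to 0.152). Over the 8 settings the count of all called probes ran from 0 to 2113 at 4 h and 960 to 2601 at 168 h after acetaminophen. After methyl parathion it ran from 0 to 392 at 4 h, 0 to 3719 at 12 h, 0 to 874 at 24 h and 1536 to 3296 at 168 h. For the differences it ran from 0 to 757 at 4 h, 441 to 3007 at 12 h, 2028 to 4487 at 24 h and 172 to 1356 at 168 h, and for the vehicle groups from 0 to 1009. With 1 array left out it ran from 179 to 1624 at 4 h and 390 to 1243 at 168 h after acetaminophen, 253 to 1909 at 12 h, 17 to 872 at 24 h and 1286 to 2035 at 168 h after methyl parathion, and 0 to 350, 966 to 1833 and 0 to 912 for the differences at 4, 12 and 168 h. Signal near background limits the 58 undetected probes, of which a change could not be seen.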
